A study of Mus musculus with 9 samples.

Results

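Nuclear receptor transcripts were examined in regulatory T cells (Treg cells) sorted from mouse spleen by CD4 and a yellow fluorescent reporter of Foxp3. The list held 40 nuclear receptor genes outside the NR4A family, found by symbol. Of these, 37 had a row among the 26683 genes of the count table. This list and the pathway lists below were chosen with earlier results of these data known. Their shares beside those of all genes therefore describe the lists and are not tests. Pgr, Nr2e3 and Nr0b1 were not analysed here. The 4 knockout mice (KO, strain EsrrgNf/f.Foxp3YFP-Cre) carried a floxed Esrrg gene and a Foxp3-linked reporter with Cre recombinase. The 5 control mice (WT, strain B6N.Foxp3YFP-Cre) carried the same reporter with Cre, and their strain name lists no floxed gene. A single mouse, labelled female and 2 to 3 months old, gave each library. Cre follows Foxp3 in this model, so the deletion concerns cells that express Foxp3. Bracketed library names begin with Err for KO and with B6-N for WT, and a difference of colony, if these names mark it, cannot be told apart from genotype.

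Nuclear receptors are transcription factors, many of which are switched by small lipophilic ligands such as steroids, retinoids, thyroid hormone, oxysterols and fatty acids. Most bind short DNA repeats of a core hexamer, either as homodimers or together with a retinoid X receptor. In T cells, retinoic acid is known to favour the induction of Foxp3, glucocorticoids to restrain activation, and the REV-ERB and ROR receptors to act in opposite directions on clock genes.

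Total counts ran from 15386929 to 17425634 in KO libraries and from 15269014 to 16874301 in WT libraries, so depth was similar. Markers of the labelled cell type were present in each library, with a summed level of Foxp3, Il2ra, Ctla4, Ikzf2, Tnfrsf18, Cd4 and Cd3e of 4340 to 4673 CPM (counts per 1000000, with scaled library sizes) in KO and 4382 to 4633 CPM in WT. KO 4, labelled female, had 27 counts of Xist, where the remaining 8 libraries had 27355 to 35693. Y-linked genes summed to 2 counts in KO 4, 23 in WT 2 and 3 in WT 5, and to 0 elsewhere. KO 4 was thus low for both Xist and Y-linked genes, and its sex is not settled by these counts. Summed B and plasma cell markers reached 506 CPM in KO 4 and 169 CPM in KO 1, with 54.5 CPM in KO 2 and 74.8 CPM in KO 3, against 33.9 to 90.4 CPM in WT. Neutrophil markers summed to 38.6, 1.61, 5.65 and 131 CPM in KO 1 to KO 4, against 2.00 to 5.31 CPM in WT. Erythroid markers summed to 23.4, 2.18, 3.74 and 16.4 CPM in KO 1 to KO 4, against 3.62 to 15.5 CPM in WT. The part of these differences in the receptor results was not tested, except that values without KO 4, or without KO 1 and KO 4, are given below for the receptors that passed the test.

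Splenic Treg cells carried transcripts of a minority of the superfamily at appreciable levels. Of the 37 receptors with a row, 22 passed edgeR's default filter on low counts, 12 had some counts but did not pass, and 3 had 0 counts in each of the 9 libraries. All 22 receptors that passed were counted in every library, and 13 of them had a median of at least 10 CPM. Their median level was 30.7 CPM, against 28.2 CPM for all 12738 genes past the filter. Compared per kilobase of merged annotated exons (RPKM), the most abundant receptor was Nr1h2, which encodes the oxysterol receptor LXR beta, with a median over 9 libraries of 36.6 RPKM. It was followed by the retinoic acid receptor gene Rarg (28.8 RPKM), the retinoid X receptor gene Rxrb (25.5 RPKM), Rara (22.7 RPKM) and the glucocorticoid receptor gene Nr3c1 (21.6 RPKM). The library ranges of these receptors overlapped from Rarg through Nr3c1, while Nr1h2 lay above all of them. Nr2c2, the gene of testicular receptor 4, stood next and apart from its neighbours on either side, at 14.3 RPKM. With the longest annotated transcript as length it was at 28.0 RPKM, above Nr3c1 at 25.8 RPKM, so its place depends on the length used. The REV-ERB beta gene Nr1d2 (9.16 RPKM) and the estrogen-related receptor gene Esrra (8.30 RPKM) overlapped each other. In the whole order, 14 of 21 neighbouring receptors had overlapping ranges, so most neighbours did not differ beyond their spread. A wide break lay between Nr2f6 (2.31 RPKM) and the mineralocorticoid receptor gene Nr3c2 (0.630 RPKM), and the 7 receptors from Nr3c2 down to Esr1 (0.217 RPKM) stayed under 1 RPKM in each library.

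**Figure D1:**
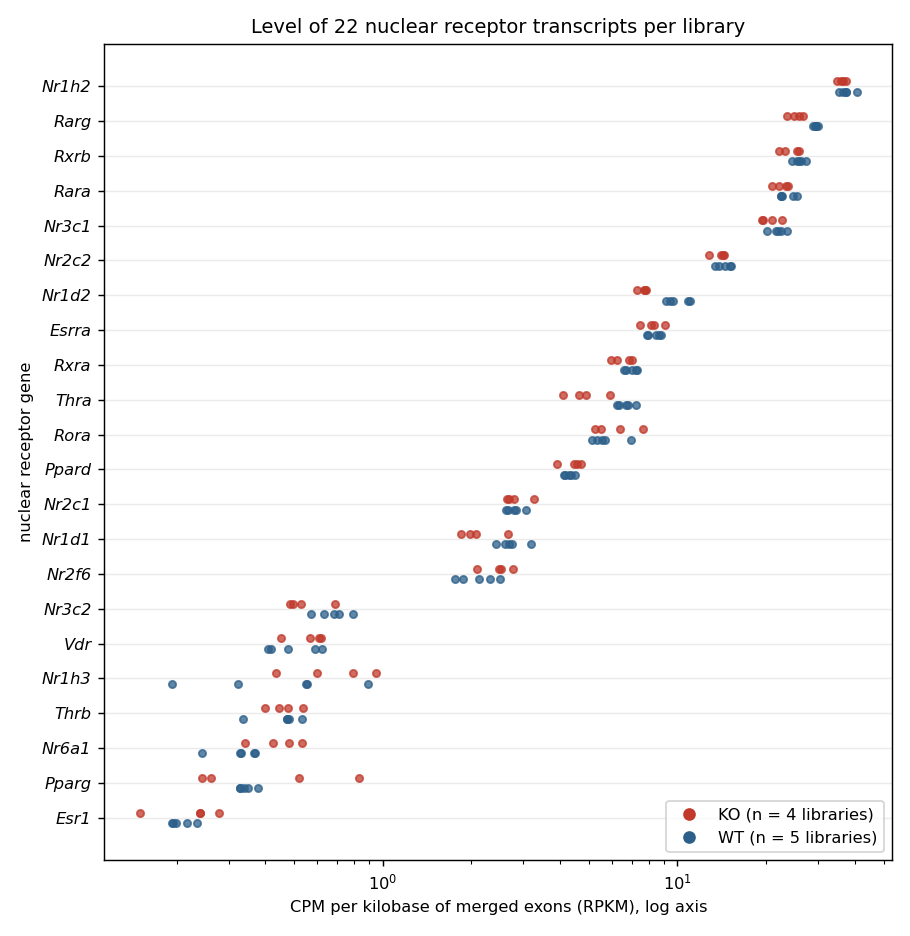
Level of the 22 receptors past the filter in each library, in RPKM (CPM per kilobase of merged exons, log axis), with KO libraries drawn above WT libraries for each gene. Median levels ran from 36.6 RPKM for Nr1h2 to 0.217 RPKM for Esr1, and KO and WT did not overlap for Nr1d2, Rarg and Thra.

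Within families, a single member held most of the transcripts, except among retinoic acid receptors, where Rarg and Rara were close. Several families had no more than a pair of listed members. Summing RPKM within each family, Nr1h2 made up 97.3% to 99.5% of the LXR total per library, and Nr1h3, the LXR alpha gene known for its role in macrophages, the rest. Nr3c1 made up 96.5% to 97.9% of the corticosteroid receptor total, Thra 88.3% to 95.6% of the thyroid hormone receptor total and Ppard 82.5% to 94.7% of the PPAR total. Among retinoic acid receptors, Rarg held 51.2% to 57.2% and Rara 42.8% to 48.8%, while Rarb had 1 count over all libraries. Rxrb held 76.4% to 81.0% of the retinoid X receptor total, and Rxrg had 1 count in all. Nr2c2 held 81.1% to 85.2% of the testicular receptor total, with Nr2c1 as the rest. Nr1d2 held 74.3% to 80.8% of the REV-ERB total, with Nr1d1 as the rest. Rora had all of the ROR counts in the list, since Rorb had 0.

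Silent receptors included the targeted gene. Esrrg, Rorb and the liver receptor homologue gene Nr5a2 had 0 counts in the 4 KO and the 5 WT libraries. A count of 0 allows up to 0.0464 CPM over the KO libraries and up to 0.0371 CPM over the WT libraries (3 counts of the summed totals, counting error alone), so a loss of Esrrg RNA was not detectable at this depth. Hnf4a, known from liver, summed to 6 counts over all libraries, the bile acid receptor gene Nr1h4 to 5, and Ppara, the fatty acid sensor of liver, to 3. Esrrb, known from pluripotent cells, and the xenobiotic receptor gene Nr1i2 had 2 counts each, and Nr1i3 and Nr5a1 had 1 count each. The small repressor gene Nr0b2 had 1 count in each of KO 1, KO 3 and KO 4 and 0 in WT. Levels this low do not separate the groups.

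The genes of the COUP transcription factors, Nr2f1 and Nr2f2, were detected in WT alone and mainly in WT 2. Nr2f1 had 0 counts in each KO library, and 37 counts in WT 2, 4 in WT 5 and 0 in WT 1, WT 3 and WT 4. Nr2f2 had 0 counts in each KO library, and 8 counts in WT 2, 2 in WT 5 and 0 in the other WT libraries. Neither passed the filter, and the values rest on WT 2. WT 2 also had the lowest share of counts in genes past the filter, 99.65%, against 99.83% to 99.91% in the other libraries. Genes under the filter as a whole thus took a larger share of counts there. In the same library other genes of the retinoid list, picked here after their values were seen, were also high. Crabp2, which encodes a retinoic acid carrier, had 0 to 2 counts in KO, and 29 counts in WT 2 against 3 to 4 in the other WT libraries. Aldh1a3, a retinoic acid synthesis gene, had 0 counts in KO, and 12 counts in WT 2, 4 in WT 5 and 0 elsewhere. The Y-linked genes were also counted in these libraries, with 0 to 2 counts in KO, and 23 in WT 2, 3 in WT 5 and 0 in the other WT libraries. Their relation to the values of Nr2f1 and Nr2f2 was not tested. Summed stromal and endothelial markers in WT 2 were 219 CPM, inside the range of the KO libraries (193 to 224 CPM) and of the WT libraries (204 to 237 CPM). Of these 5 markers, 1 was at 0 in WT 2 and none in the other libraries. A sum of this size could not show other cells at the level of Nr2f1 (2.24 CPM) or Nr2f2 (0.485 CPM) in WT 2, and their part was not tested.

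Against this background, few receptors differed between KO and WT, and those that did were lower in KO. Nr1d2, Rarg and Thra fell, and no receptor rose. That is 3 of 22 receptors tested (13.6%), at an adjusted p under 0.05 in edgeR's quasi-likelihood test with Benjamini-Hochberg adjustment over all 12738 genes. Among all genes tested the share was 3.28%, with 1.88% lower and 1.40% higher in KO. KO and WT values did not overlap for the same 3 receptors, against 9.07% of all genes tested. An unadjusted edgeR p under 0.05 was found for 5 of the 22 receptors (22.7%), against 21.6% of all genes tested. The median log2 fold change (KO over WT) was -0.03 for the 22 receptors and 0.0052 for all genes tested, and 12 of the 22 were negative. In bulk RNA, fewer cells of a type and less RNA per cell cannot be told apart, for these receptors as for those below.

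**Figure D2:**
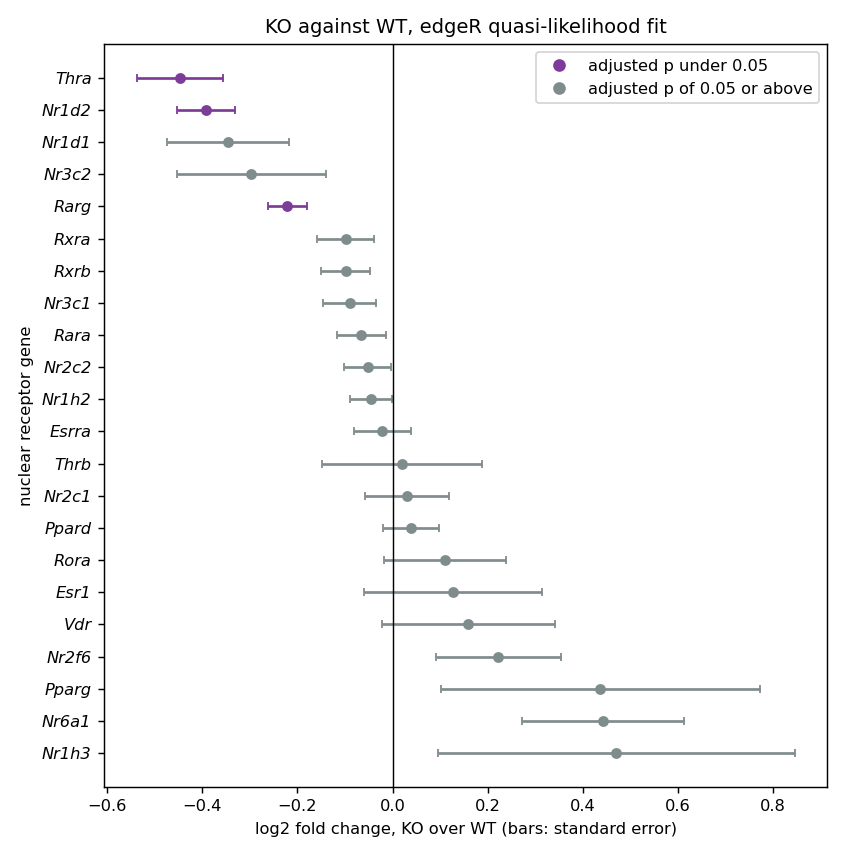
Log2 fold change of each of the 22 receptors, KO over WT, with its standard error as a bar (edgeR, 4 KO and 5 WT libraries). Thra, Nr1d2 and Rarg, drawn in purple, had adjusted p-values of 0.0223, 0.00767 and 0.0157, and the other 19 did not pass.

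Nr1d2 had the smallest p of the list. It encodes REV-ERB beta, a heme-binding repressor of the circadian clock (mm10, chromosome 14, 18204054 to 18239127, minus strand), and no other annotated gene overlaps it. Its level was 42.2, 41.9, 39.5 and 41.6 CPM in KO 1 to KO 4, against 59.5, 49.5, 58.5, 51.0 and 52.4 CPM in WT 1 to WT 5. The KO libraries lay close together and below each WT library. The means were 41.3 ± 1.24 CPM in KO (SD, n = 4) and 54.2 ± 4.53 CPM in WT (n = 5), and the log2 fold change was -0.39 ± 0.06 (SE, with an edgeR adjusted p of 0.00767). The call held in each of the 9 fits that left out 1 library, with adjusted p-values from 0.00573 to 0.0280, and without KO 1 and KO 4 together (log2 fold change -0.42, adjusted p = 0.0406).

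Rarg fell by less but was among the most uniform receptors. It encodes retinoic acid receptor gamma (chromosome 15, 102234938 to 102257517, minus strand), again with no overlapping gene. Its level was 100.3, 113, 106 and 110.1 CPM in KO 1 to KO 4, against 125, 125, 125, 123 and 128 CPM in WT 1 to WT 5. The WT libraries had a coefficient of variation of 1.39%, the lowest of the 22 receptors, and each KO library lay below all of them. The means were 107 ± 5.59 CPM in KO (SD, n = 4) and 125 ± 1.74 CPM in WT (n = 5), and the log2 fold change was -0.22 ± 0.04 (SE, with an edgeR adjusted p of 0.0157). The call held in each of the 9 fits that left out 1 library (adjusted p from 0.0120 to 0.0497), and ended without KO 1 and KO 4 together (-0.19, adjusted p = 0.0768).

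The promoters of Nr1d2 and Rarg are shown because these are the called receptors that have a window. RefSeq windows of 300 bases (build GRCm38.p6), from 250 bases before the start to 50 after it, matched 34 of the 37 receptors. The core hexamer AGGTCA, searched on both strands, is in capitals, and reads as its reverse complement TGACCT where it lies on the other strand. The Nr1d2 window is chr14:18239057-18239356 and the Rarg window chr15:102257473-102257772, both on the minus strand and written 5′ to 3′.
Nr1d2: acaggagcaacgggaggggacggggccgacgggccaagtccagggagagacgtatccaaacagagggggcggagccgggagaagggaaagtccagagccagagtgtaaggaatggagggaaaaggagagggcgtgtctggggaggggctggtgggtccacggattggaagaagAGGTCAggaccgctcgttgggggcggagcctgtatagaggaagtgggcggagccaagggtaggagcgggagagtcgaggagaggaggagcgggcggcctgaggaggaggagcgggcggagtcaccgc
Rarg: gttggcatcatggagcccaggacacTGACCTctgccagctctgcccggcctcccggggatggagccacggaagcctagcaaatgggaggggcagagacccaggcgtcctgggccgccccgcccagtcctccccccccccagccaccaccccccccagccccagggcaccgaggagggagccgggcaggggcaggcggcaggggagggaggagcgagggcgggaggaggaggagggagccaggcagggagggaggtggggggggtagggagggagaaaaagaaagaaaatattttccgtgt
The hexamer begins at base 174 of the Nr1d2 window and at base 26 of the Rarg window. A RefSeq window at another start of Rarg held none. The hexamer was in 11 of 55 receptor windows (20%) and in 16.3% of all 32851 windows of this length. Genes can have several windows, and 10 of the 34 receptors had it in at least 1. These matches describe letters and not binding.

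Thra encodes thyroid hormone receptor alpha, the receptor of thyroid hormone that also yields a non-binding isoform. Its level was 27.1, 22.6, 21.4 and 18.8 CPM in KO 1 to KO 4, against 33.2, 28.7, 30.9, 29.1 and 31.4 CPM in WT 1 to WT 5. KO 1 lay just under the lowest WT library, and the other KO libraries further down. The means were 22.5 ± 3.47 CPM in KO (SD, n = 4) and 30.7 ± 1.83 CPM in WT (n = 5), and the log2 fold change was -0.45 ± 0.09 (SE, with an edgeR adjusted p of 0.0223). The call lay close to the threshold. Without KO 4 the log2 fold change was -0.37 (adjusted p = 0.0645), and the call also ended without KO 3 (-0.42, 0.0645), WT 3 (-0.45, 0.0723), WT 4 (-0.47, 0.0508) or WT 5 (-0.44, 0.0668), in fits that called 97 to 182 genes in all against 418 with every library, while it held without KO 1 and KO 4 together (-0.48, adjusted p = 0.0151). Thrb, the beta receptor, was at 3.44 ± 0.435 CPM in KO and 3.40 ± 0.545 CPM in WT (log2 fold change 0.02 ± 0.17, adjusted p = 0.962).

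Thra shares its end with Nr1d1, the REV-ERB alpha gene, on chromosome 11. Thra (98740638 to 98769006, plus strand) and Nr1d1 (98767932 to 98775333, minus strand) overlap by 1075 bases on opposite strands. The library kit keeps strand, but whether counting used strand is unknown here, so reads from the shared bases may be assigned to either gene or to neither. Nr1d1 was at 8.21, 5.65, 6.11 and 6.38 CPM in KO 1 to KO 4, against 8.46, 9.76, 7.97, 7.43 and 8.27 CPM in WT 1 to WT 5. KO 1 lay inside the WT range, and the other KO libraries below it. Its log2 fold change of -0.35 ± 0.13 (SE, n = 4 and 5) did not pass (edgeR adjusted p = 0.148, from 0.0631 to 0.332 over the alternatives). The overlapping genes were thus both lower on average in KO, and 1 of them passed the test.

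**Figure D3:**
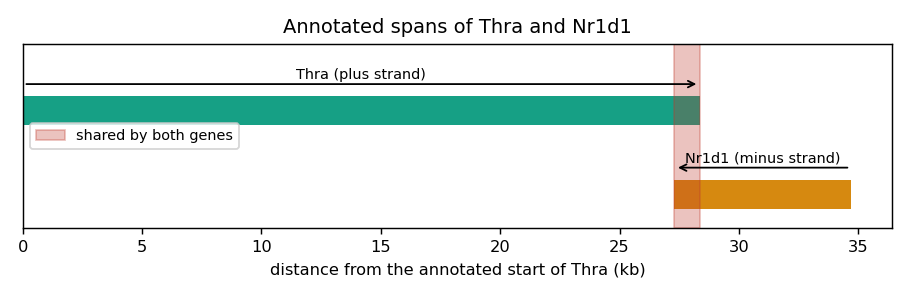
Annotated spans of Thra and Nr1d1 on mouse chromosome 11, in kilobases from the annotated start of Thra, with arrows for the direction of transcription. The shaded 1075 bases belong to both genes, on opposite strands.

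Whether a called receptor differed from its relative was tested within libraries, as the log2 ratio of their RPKM values, by two-sided exact permutation over libraries. With 4 against 5 libraries the smallest exact p is 0.0159, so a single ratio could reach 0.0635 at best after adjustment over 4 ratios and could not pass alone. None of the 4 passed after Benjamini-Hochberg adjustment. The ratio of Rarg to Rara was 1.12 ± 0.0515 in KO (SD, n = 4) and 1.25 ± 0.0733 in WT (n = 5), with exact permutation p = 0.0317 and 0.0952 adjusted. The ratio of Thra to Thrb was 10.7 ± 2.23 in KO and 14.99 ± 3.80 in WT, with exact permutation p = 0.0476 and 0.0952 adjusted. The ratio of Nr1d2 to Nr1d1 was 3.63 ± 0.535 in KO and 3.71 ± 0.508 in WT, with exact permutation p = 0.825. The ratio of Thra to Nr1d1 was 2.29 ± 0.292 in KO and 2.46 ± 0.282 in WT, with exact permutation p = 0.492. These tests could therefore not settle whether a called receptor differed from its relative.

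Genes of the circadian clock, in which REV-ERB and ROR receptors act, gave a single call. Of 14 clock genes tested, Dbp alone passed (7.14%, against 3.28% of all genes tested). An unadjusted edgeR p under 0.05 was found for 2 of the 14 (14.3%), against 21.6% of all genes tested. Of the 14, 10 were negative (71.4%, against 48.5% of all genes tested), with a median log2 fold change of -0.11, against 0.0052 for all genes tested. Dbp encodes a clock-driven activator of rhythmic genes. It was at 30.8, 32.2, 35.5 and 30.6 CPM in KO 1 to KO 4, against 37.7, 40.4, 42.9, 40.3 and 41.1 CPM in WT 1 to WT 5. Each KO library lay below each WT library, with a log2 fold change of -0.33 ± 0.06 (SE, n = 4 and 5, edgeR adjusted p = 0.0140). The call ended without KO 4 (-0.31, adjusted p = 0.0507) and without KO 1 and KO 4 together (-0.26, adjusted p = 0.109). Arntl, the clock activator that REV-ERB proteins are known to repress, was at 0.08 on the log2 fold change scale (adjusted p = 0.520). The time of day at which the mice were killed is not given in the labels, so its part in these values was not tested.

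**Figure D4:**
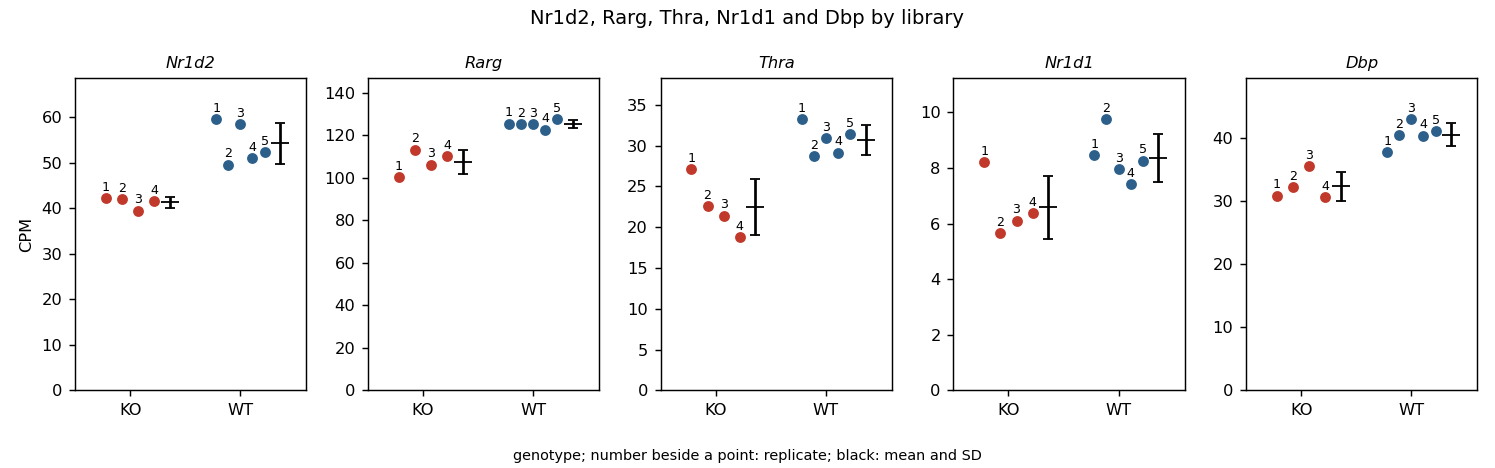
CPM of Nr1d2, Rarg, Thra, Nr1d1 and the clock gene Dbp in each KO and WT library, with the mean and SD of each group in black and the replicate number above each point. KO and WT did not overlap for Nr1d2, Rarg, Thra and Dbp, while KO 1 lay inside the WT range for Nr1d1.

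Rora, the activator that competes with REV-ERB proteins, varied between libraries within both groups. It was at 99.97, 68.5, 71.8 and 83.5 CPM in KO 1 to KO 4, against 91.3, 74.1, 67.2, 72.6 and 69.9 CPM in WT 1 to WT 5. KO 1, WT 1 and KO 4 were the high libraries, and the groups overlapped widely (log2 fold change 0.11 ± 0.13, SE, edgeR adjusted p = 0.656, and -0.10 without KO 1 and KO 4).

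The other retinoid receptors did not pass. Rara was at 98.2 ± 5.63 CPM in KO (SD, n = 4) and 103 ± 6.05 CPM in WT (n = 5), with a log2 fold change of -0.07 ± 0.05 (SE, with an edgeR adjusted p of 0.493). Rxra, the common heterodimer partner, was at 35.6 ± 2.76 CPM in KO and 38.1 ± 1.74 CPM in WT, with a log2 fold change of -0.10 (adjusted p = 0.359). Rxrb was at 96.0 ± 7.13 CPM in KO and 103 ± 3.99 CPM in WT, with a log2 fold change of -0.10 (adjusted p = 0.285). The fold changes of all 4 retinoid receptors tested were negative under each of the 4 scalings tried, and Rarg alone had an adjusted p under 0.05. The scalings differed little, with a median log2 fold change for all genes from 0.0013 to 0.0052, so these signs had little room to change. Of 7 tested genes for retinoid synthesis and response, 0 passed with edgeR, and 1 had an unadjusted p under 0.05, a share of 14.3%, where all genes gave 21.6%. Tgm2, a transglutaminase gene induced by retinoic acid, had the smallest p, with 21.3, 7.45, 7.02 and 10.6 CPM in KO 1 to KO 4, against 5.86 to 7.58 CPM in WT (log2 fold change 0.84 ± 0.32, adjusted p = 0.177). KO 1 and KO 4 were the high libraries, and the log2 fold change was 0.36 without KO 1 and 0.15 without both. Stra6, a retinol transporter gene, was at 9.15 ± 3.04 CPM in KO and 12.6 ± 2.09 CPM in WT (log2 fold change -0.46 ± 0.21, adjusted p = 0.235, and -0.70 with an adjusted p of 0.0477 without KO 1).

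Steroid receptors did not pass either. Nr3c1, the glucocorticoid receptor gene, was at 148, 174, 161 and 149.9 CPM in KO 1 to KO 4, against 181, 155, 173, 168 and 166 CPM in WT 1 to WT 5. The groups overlapped, with a log2 fold change of -0.09 ± 0.06 (SE, n = 4 and 5, edgeR adjusted p = 0.374). Nr3c2, the mineralocorticoid receptor gene, was at 3.56 ± 0.619 CPM in KO and 4.38 ± 0.546 CPM in WT (log2 fold change -0.30 ± 0.16, adjusted p = 0.290). Esr1, the estrogen receptor alpha gene, was at 3.10 ± 0.743 CPM in KO and 2.83 ± 0.242 CPM in WT (log2 fold change 0.13 ± 0.19, adjusted p = 0.729). The spread of these low receptors was wide against their differences.

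Of 12 tested glucocorticoid response genes, 0 passed with edgeR, 2 had an unadjusted p under 0.05 (16.7%) and 2 passed with DESeq2. Among all genes, 21.6% had a p that low and 7.21% passed with DESeq2. Tsc22d3, which encodes the glucocorticoid-induced leucine zipper protein, had the smallest p. It was at 79.1, 113, 99.6 and 74.6 CPM in KO 1 to KO 4, against 189.6, 116, 145, 139 and 230.2 CPM in WT 1 to WT 5. The KO libraries lay below the WT libraries without overlap, as for 1 of the 12 genes and 9.07% of all genes tested, but WT 2 was close to KO 2. The log2 fold change of -0.84 ± 0.23 (SE, n = 4 and 5) did not pass (edgeR adjusted p = 0.0981, from 0.0111 to 0.443 over the alternatives). Il7r, the interleukin-7 receptor gene, was at 155 ± 11.7 CPM in KO and 182 ± 19.4 CPM in WT (log2 fold change -0.23 ± 0.08, adjusted p = 0.125). WT 1 stood apart in part of this list, since Dusp1, a phosphatase gene also induced by cell handling, had 1302 to 1936 counts in KO libraries, and 12090 counts in WT 1 against 1332 to 2433 in the other WT libraries.

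Among lipid-sensing receptors, the abundant members overlapped between the groups and the rare ones were high in a few libraries. Nr1h2 was at 123, 125, 121 and 117 CPM in KO 1 to KO 4, against 136, 118, 125, 122 and 125 CPM in WT 1 to WT 5 (log2 fold change -0.05 ± 0.04, SE, edgeR adjusted p = 0.577). Ppard, the widely expressed PPAR gene, was at 33.1 ± 2.59 CPM in KO (SD, n = 4) and 32.2 ± 1.11 CPM in WT (n = 5), with a log2 fold change of 0.04 (adjusted p = 0.745). Neither receptor passed, and the libraries of the groups overlapped. Pparg, known from adipose tissue macrophages and fat-resident Treg cells, was at 1.54, 0.770, 0.722 and 2.45 CPM in KO 1 to KO 4, against 0.967, 1.03, 0.966, 1.12 and 1.002 CPM in WT 1 to WT 5. KO 1 and KO 4 lay above all WT libraries, and KO 2 and KO 3 below them. Its log2 fold change was 0.44 ± 0.34 (adjusted p = 0.473) with all libraries and -0.44 (adjusted p = 0.575) without KO 1 and KO 4. Nr1h3 was at 1.99, 1.09, 1.51 and 2.39 CPM in KO 1 to KO 4, against 2.24, 1.39, 0.483, 1.38 and 0.814 CPM in WT 1 to WT 5, with a log2 fold change of 0.47 ± 0.38 (adjusted p = 0.493). KO 4, WT 1 and KO 1 were the high libraries for Nr1h3.

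Those libraries also held the most macrophage transcripts. The summed level of 9 macrophage markers, among them Adgre1, Csf1r and the C1q genes, was 93.0, 27.9, 49.2 and 147 CPM in KO 1 to KO 4, against 80.8, 27.2, 28.7, 48.2 and 34.3 CPM in WT 1 to WT 5. None of these 9 markers was at 0 in any library. The part of other cells in the levels of Pparg, Nr1h3 and Rora was not tested.

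**Figure D5:**
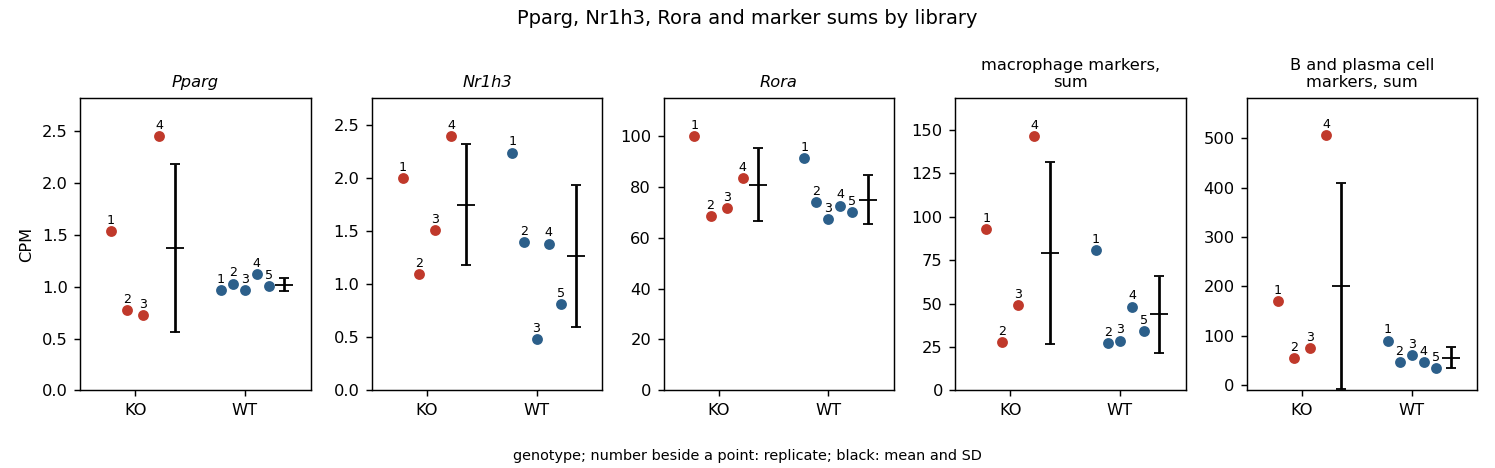
CPM of Pparg, Nr1h3 and Rora, and summed CPM of 9 macrophage markers and 8 B and plasma cell markers, in each KO and WT library, with group mean and SD in black. KO 1 and KO 4 were the highest KO libraries in each panel, and WT 1 was the highest WT library in each panel but that of Pparg.

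Of 9 tested LXR response genes, 1 fell (11.1%) and 0 rose, where 1.88% of all genes tested fell. This list and the PPAR list below were chosen with earlier results of these data known, so their shares only describe them. Abca1, which encodes a cholesterol exporter and is a classic LXR target, was at 27.1, 26.6, 23.2 and 21.9 CPM in KO 1 to KO 4, against 35.5, 31.3, 36.1, 38.3 and 35.9 CPM in WT 1 to WT 5. All KO libraries lay below all WT libraries. The log2 fold change was -0.52 ± 0.08 (SE, n = 4 and 5, edgeR adjusted p = 0.00582) and -0.51 without KO 1 and KO 4 (adjusted p = 0.0223). Other genes of the list did not pass. Among them were the exporter gene Abcg1 (0.01, adjusted p = 0.969) and Mylip, a ubiquitin ligase gene of the LDL receptor (-0.21, adjusted p = 0.126). Of the 9 genes, 4 had an unadjusted edgeR p under 0.05 (44.4%, against 21.6% of all genes tested). KO and WT did not overlap for 2 of the 9, against 9.07% of all genes tested. Of 13 tested PPAR response genes, 3 rose (23.1%) and 0 fell, where 1.40% of all genes tested rose. They were the fatty acid oxidation genes Cpt1a and Acadvl, at log2 fold changes of 0.46 and 0.70 (adjusted p = 0.00682 and 0.0461), and Plin2. Plin2, which coats lipid droplets, was at 14.99, 17.8, 12.9 and 14.8 CPM in KO 1 to KO 4, against 12.6, 12.1, 9.60, 9.47 and 10.3 CPM in WT 1 to WT 5. Each KO library lay above each WT library, KO 3 by a narrow margin, with a log2 fold change of 0.49 ± 0.12 (adjusted p = 0.0435). Cpt1a passed in each of the 9 fits that left out 1 library. Plin2 passed in 3 of them, with log2 fold changes from 0.40 to 0.55 (adjusted p from 0.0305 to 0.125). Acadvl passed in 1 of them, that without WT 2, and had log2 fold changes from 0.58 to 0.74 (adjusted p from 1.69e-04 to 0.126).

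Vitamin D and thyroid hormone supply and response genes gave no call. Vdr, the vitamin D receptor gene, was at 3.17 ± 0.423 CPM in KO (SD, n = 4) and 2.84 ± 0.556 CPM in WT (n = 5), a log2 fold change of 0.16 ± 0.18 (SE, with an edgeR adjusted p of 0.644). Its catabolic target Cyp24a1 had 1 count over all libraries, in WT 5. Of 4 genes of this list past the filter, 0 passed with edgeR and 0 had an unadjusted p under 0.05. The members with the smallest p were the thyroid hormone transporter gene Slc16a10 (log2 fold change 0.43 ± 0.21, adjusted p = 0.253, and 0.15 without KO 4) and Klf9, a target of thyroid hormone and glucocorticoids (0.10 ± 0.10, adjusted p = 0.617).

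Esrra, the estrogen-related receptor with transcripts in these cells, was at 35.6, 39.7, 32.8 and 36.4 CPM in KO 1 to KO 4, against 34.7, 34.9, 37.1, 38.01 and 38.7 CPM in WT 1 to WT 5. The groups overlapped, with the lowest and the highest value both in KO, and the log2 fold change was -0.02 ± 0.06 (SE, n = 4 and 5, with an edgeR adjusted p of 0.875). Of 13 tested genes known to respond to estrogen-related receptors, 0 passed with edgeR, 4 had an unadjusted p under 0.05 (30.8%) and 1 passed with DESeq2. Over all genes tested, 21.6% had such a p and 7.21% passed with DESeq2. Cox5a, a subunit gene of cytochrome c oxidase, was at 66.4 ± 2.62 CPM in KO and 58.3 ± 2.88 CPM in WT (log2 fold change 0.19 ± 0.05, adjusted p = 0.0503). Atp5o, a subunit gene of ATP synthase, was at 89.1 ± 2.97 CPM in KO and 81.5 ± 3.19 CPM in WT (log2 fold change 0.13 ± 0.04, adjusted p = 0.102).

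Orphan receptors outside these families did not pass. Nr2c2 was at 207 ± 11.3 CPM in KO (SD, n = 4) and 215 ± 11.5 CPM in WT (n = 5), with a log2 fold change of -0.05 (edgeR adjusted p = 0.568), and its relative Nr2c1 was at 13.1 ± 1.303 CPM in KO and 12.8 ± 0.814 CPM in WT (0.03, adjusted p = 0.876). Nr2f6, known as a repressor of cytokine genes in T cells, was at 7.36 ± 0.843 CPM in KO and 6.30 ± 0.906 CPM in WT (0.22 ± 0.13, adjusted p = 0.342). Nr6a1, the germ cell nuclear factor gene, was at 3.70, 5.78, 4.60 and 5.21 CPM in KO 1 to KO 4, against 3.57, 4.00, 3.56, 2.63 and 3.95 CPM in WT 1 to WT 5. KO 1 lay inside the WT range and the other KO libraries above it (log2 fold change 0.44 ± 0.17, adjusted p = 0.158). The Nr6a1 span holds 7 other annotated genes, including microRNA genes, and 13 of the 22 receptors past the filter overlap at least 1 other annotated gene.

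Coregulators, the proteins through which receptors activate or repress, gave a single call. Of 22 coregulator genes tested, 21 had a negative log2 fold change (95.5%, against 48.5% of all genes tested). The median log2 fold change of the 22 was -0.08, against 0.0052 for all genes tested. Under each of the 4 scalings tried, 21 were negative. These scalings differed little, with a median for all genes from 0.0013 to 0.0052, so the signs had little room to change. The gene that passed was Carm1 (4.55%, against 3.28% of all genes tested). Carm1, which encodes an arginine methyltransferase that acts as a coactivator, was at 83.3, 80.3, 83.4 and 87.0 CPM in KO 1 to KO 4, against 96.6, 103, 107, 99.2 and 101.9 CPM in WT 1 to WT 5. All KO libraries lay below all WT libraries, with a log2 fold change of -0.28 ± 0.04 (SE, n = 4 and 5, edgeR adjusted p = 0.00522). Ncoa1, a steroid receptor coactivator gene, had a log2 fold change of -0.23 (adjusted p = 0.0548), and the corepressor gene Ncor1 was at -0.01 (adjusted p = 0.947). Carm1 overlaps another annotated gene, Yipf2.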

How the data were processed

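RNA was extracted from the sorted Treg cells of single mice and made into stranded Illumina TruSeq libraries, per the labels' protocols. A single table of raw counts, with genes as symbols, was deposited by the authors. STAR 2.7, DESeq2 and mm10 are named in the submitters' processing notes without a role, and no source used here names the counting program, annotation or strand option. Columns were matched to samples by the bracketed names in the titles, and 0 columns were left unused. Receptors were found by symbol, and all 37 were placed on mm10 by name with GENCODE M21.

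The test was edgeR 4.0.16's quasi-likelihood test on counts (R 4.3.3), with robust estimates, TMM scaling and its default low-count filter by group (Benjamini-Hochberg adjustment over 12738 genes, threshold 0.05). Each standard error is the absolute log2 fold change over the root of F. CPM used the scaled library sizes, and RPKM divided it by merged exon length. The procedure was run on simulated independent counts drawn from the means and dispersions of these data. That simulation held no outlying libraries, so it cannot vouch for the calls made here. P-values of ratios came from exact permutation with scipy 1.17.1. The alternatives tried were DESeq2 1.42.0, limma-voom (limma 3.58.1), other scalings, other filters, replicate blocks and leaving out libraries. The text names every receptor of the list and, from each pathway list, up to 4 called genes by smallest p or else the 2 with the smallest p. Genes named outside that rule (Arntl, Abcg1, Mylip, Dusp1, Crabp2, Aldh1a3, Cyp24a1, Ncoa1 and Ncor1) were chosen after their values were seen. Members and lists were chosen with earlier results of these data known. Because no molecular identifiers are mentioned, bounds cover counting error alone.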

Additional observations from a re-analysis of the deposited data

Results flagged for a closer look

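In 5 of 74 groups of 4 or 5 libraries checked, 1 library lay far from the rest of its group, where chance gives about 1 in 20. Rora in WT 1 was at 91.3 CPM, against 67.2 to 74.1 CPM in the other WT libraries. Nr2f1 in WT 2 was at 2.24 CPM, against 0 to 0.250 CPM in the other WT libraries. Nr2f2 in WT 2 was at 0.485 CPM, against 0 to 0.125 CPM. Acadvl in WT 2 was at 32.3 CPM, against 50.1 to 56.8 CPM in the other WT libraries. Klf9 in WT 5 was at 8.95 CPM, against 7.13 to 7.63 CPM in the other WT libraries. Groups with fewer than 10 summed counts were not checked. Dusp1 in WT 1 and Crabp2 in WT 2, described above, are not among the 5 flags, so the flags do not cover all outlying values.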

How the results depend on the processing

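Over 19 alternative fits, Nr1d2 passed in all but the fit with a replicate block by title number, Rarg in all but that and the fit without KO 1 and KO 4, and Thra in 13. No called receptor changed sign. Fits without 1 library called 97 to 697 genes in all and 2 to 3 receptors, against 418 and 3 with every library. DESeq2 called 919 genes, and leaving out KO 1 and KO 4 together gave 118. A replicate block by title number, which also left out WT 5, left 26 genes and 0 receptors past the threshold. The lists of LXR response, circadian clock and coregulator genes had 0 there and PPAR response genes 1. Leaving out WT 5 without a block gave 117 genes and 2 receptors. The bracketed number as a replicate block, which also left out WT 2, gave 1 glucocorticoid response gene, 2 clock genes and 1 estrogen-related receptor response gene. Leaving out WT 2 without a block gave 0, 2 and 1 of these. Same-numbered libraries did not deviate together (correlations from -0.0669 to 0.1002 for title numbers and from -0.260 to 0.0990 for bracketed numbers), so the numbers were not taken to pair the mice.

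With DESeq2, 2 glucocorticoid, 1 retinoid, 1 estrogen-related receptor response and 4 coregulator genes passed, and with limma-voom 1 glucocorticoid response gene. Size factors of DESeq2 gave 1 estrogen-related receptor response gene. Upper-quartile scaling, library size alone and no filter each gave 2 coregulators. Without KO 1 and KO 4, 1 PPAR response gene and 0 clock genes passed. Leaving out 1 library gave 0 to 2 retinoid genes, 1 to 4 PPAR response genes, 0 to 2 clock genes, 0 to 1 estrogen-related receptor response genes and 1 to 3 coregulators. The cause was not tested. Log2 fold changes of uncalled receptors turned sign without KO 1 and KO 4 for Pparg (-0.44), Rora (-0.10) and Thrb (-0.13). Leaving out 1 library gave -0.069 to 0.021 for Esrra, -0.0094 to 0.19 for Rora, -0.075 to 0.085 for Thrb and -0.041 to 0.066 for Nr2c1. Other filters kept 22 to 24 receptors, and with the longest transcript as length 7 of the 8 most abundant receptors stayed among them. Receptors under about 5 CPM rest on few counts, so small differences there were not detectable at this depth.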
